A study of Drosophila melanogaster with 16 samples.

Results

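The 7 genes of the male-specific lethal (MSL) dosage compensation complex of Drosophila melanogaster were followed through 3 histone marks in 3 sets of neurons. They are the noncoding RNA genes roX1 and roX2, the assembly genes msl-1, msl-2 and msl-3, the helicase gene mle and the acetyltransferase gene mof. Every annotated isoform whose symbol belongs to one of these genes was taken, which gave 15 isoforms with 13 distinct promoter windows, out of 25406 isoforms of 15182 genes. The study used adult fly heads and purified the nuclei of chosen neurons through a GFP-tagged nuclear envelope protein, unc84-GFP, switched on by a GAL4 driver. The driver R57C10 is active in all mature neurons. OK107 mostly marks the Kenyon cells of the mushroom body, a centre of learning, and Tdc2 mostly marks cells that make octopamine. Chromatin cut with micrococcal nuclease was sequenced after immunoprecipitation (ChIP-seq) of H3K4me3, H3K27ac or H3K27me3, beside 1 input library a line that was not precipitated. R57C10 had 2 libraries of each mark, OK107 had 1 of each, and Tdc2 had 2 of H3K27me3 and 1 of each other mark. The heads were pooled, the sex of the flies is not given in the labels, and all 3 lines carry the same tagged protein.

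In male flies the MSL complex binds the single X chromosome and raises the transcription of its genes. The proteins MSL-1 and MSL-2 form the core to which MSL-3, the helicase MLE and the acetyltransferase MOF attach, and MOF acetylates histone H4 at lysine 16. The roX1 and roX2 RNAs are needed for assembly and spreading and are themselves transcribed from the X. In females the protein Sex-lethal blocks translation of msl-2, so the complex does not form, whereas the other protein subunits are made in both sexes. H3K4me3 and H3K27ac mark active promoters, and H3K27me3 is the mark of Polycomb repression.

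On the dm3 assembly, roX1 (CR32777) lies on the minus strand of X, from position 3752929 to 3756720 over its 2 isoforms. roX2 (CR32665) lies on the plus strand of X, from 11473089 to 11474465 over 4 isoforms. The acetyltransferase gene mof (CG3025) is the other X-linked member, on the minus strand from 5767868 to 5770884. The genes msl-1 (CG10385, 18683720 to 18688796) and msl-2 (CG3241, 3462213 to 3466111) lie on the minus strand of 2L. The gene msl-3 (CG8631) spans 7116310 to 7118623 on the minus strand of 3L, and mle (CG11680) spans 1862243 to 1868277 on the minus strand of 2R. Promoter windows were about 1 kb wide and centred on the transcript start, so several are shared with a neighbour. The msl-2 window shares 951 bp with the promoter window of Pdsw, the 2 msl-3 windows share 851 and 894 bp with that of BBS1, and the upstream mle window shares 494 bp with that of Src42A. Promoter signal at these genes therefore cannot be assigned to one gene of the pair. The roX1-RA window holds 226 bp of the gene yin, the roX2 windows hold 211 to 251 bp of CG11695, and the msl-1 window shares 217 bp with that of CG10336. The mof window holds 357 bp of CG3016.

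Promoter windows held 6014866 to 46639284 reads in the H3K4me3 libraries and 7946606 to 17200471 in the H3K27ac libraries. Gene bodies held 7774487 to 54752433 reads in the H3K27me3 libraries, with both Tdc2 libraries the lowest at 7774487 and 8535933. Levels are given as CPM, counts scaled to library size, after TMM scaling, and each level is set against the input of its line as log2 of (mark CPM + 1) over (input CPM + 1). Replicates are called early and late by the order of the date tags in the column names. In each mark R57C10 carried tags that neither other line carried, so driver line and date cannot be told apart in comparisons with R57C10. Of 7 neuronal marker genes, 6 or 7 were above input in H3K27ac in every library. Of the 7 Kenyon cell markers, 6 were above input in OK107 in this mark, against 3 or 4 elsewhere. All 3 octopaminergic markers were above input in Tdc2, against 1 elsewhere. In H3K4me3, 5 Kenyon cell markers were above input in OK107, against 2 or 3 elsewhere. There 0 of 3 octopaminergic markers were above input in any library, with the highest median in Tdc2, at -0.36. Neuronal markers above input in H3K4me3 numbered 7 in each R57C10 library, 4 in OK107 and 5 in Tdc2. No marker of muscle, fat body or blood was above input in H3K27ac, and 1 or 2 of 8 glial and 1 of 5 photoreceptor markers were. The inputs differed on the X: per kilobase of gene body the median X gene held 0.636 times the input of the median autosomal gene in R57C10, 0.704 times in OK107 and 0.700 times in Tdc2. With the sex of the flies not given, a different share of males and the driver line cannot be told apart for X-linked input or for roX1. In bulk chromatin, fewer cells of a type and less signal per cell cannot be told apart.

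The 5 protein-coding genes carried H3K4me3 above input in every library, except mle in Tdc2 at -0.01, and H3K27me3 below it. The 2 RNA genes carried little or no H3K4me3 enrichment. They stood at percentiles 54.7 to 60.3 of H3K4me3 over input, as the median tested gene was below input. H3K27me3 was below input for 6 members in all 5 libraries, and above input only for roX1, in 3 libraries that were all from OK107 or Tdc2. The median tested gene was also below input in each H3K27me3 library, from -0.72 to -0.56. Among tested genes those 6 members ranged from percentile 1.95, for mle, to 60.1, for msl-3, of H3K27me3 over input. The values over input are drawn in the plot of mark over input by gene and library.

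**Figure D1:**
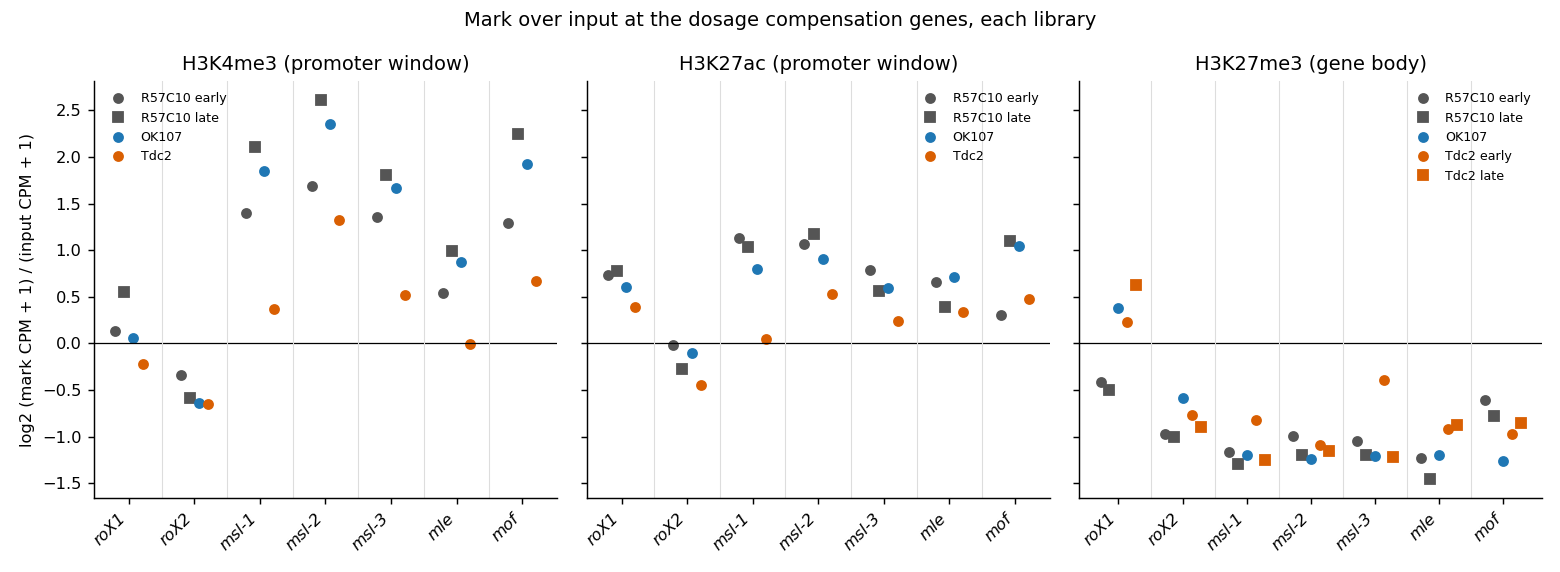
Mark over input for the 7 genes. Each point is 1 library, with the y axis as log2 of mark CPM + 1 over input CPM + 1, grey for R57C10, blue for OK107 and orange for Tdc2, circles for single or early libraries and squares for late ones. roX1 is the only member above the zero line in H3K27me3, at 0.23 to 0.63 in OK107 and Tdc2.

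roX1 was the member with the largest H3K27me3 fold between lines. Over its gene body the H3K27me3 level was 23.2 CPM in the early and 21.9 CPM in the late R57C10 library, 35.7 CPM in OK107, and 42.7 and 56.9 CPM in the early and late Tdc2 libraries. Both Tdc2 libraries lay above OK107, and OK107 lay above both R57C10 libraries, so no groups overlapped. Such separation was not particular to roX1. The roX2 and mle libraries of Tdc2 and R57C10 did not overlap either, and neither gene was called. The share of all genes with such a separation was not computed. Per kilobase of gene body the roX1 levels were 6.20 and 5.84 CPM in R57C10, 9.52 CPM in OK107 and 11.4 and 15.2 CPM in Tdc2. The input over the same body was 31.3 CPM in R57C10, 27.1 CPM in OK107 and 36.4 CPM in Tdc2. Set against those inputs, log2 H3K27me3 was -0.41 and -0.50 in R57C10, 0.38 in OK107 and 0.23 and 0.63 in Tdc2. The sign thus changed between R57C10 and the other lines, and OK107 fell between the 2 Tdc2 libraries on this scale. Among all tested genes, roX1 stood at percentiles 60.4 and 56.8 of H3K27me3 over input in R57C10, 82.8 in OK107, and 86.4 and 92.6 in Tdc2.

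In the edgeR quasi-likelihood fit over all genes, roX1 H3K27me3 was higher in Tdc2 than in R57C10 by 1.14 ± 0.18 (log2 fold ± SE; 2 libraries against 2; adjusted p = 0.000816). It was the only one of the 7 members called, in a comparison in which 19.7% of all tested genes were called and 4.95% were called higher. The roX1 fold stood at percentile 98.5 of all folds, and 21 of 2264 tested X genes had a larger one. The roX1 input moved in the same direction, by a log2 ratio of 0.21 between Tdc2 and R57C10, beside a median of 0.12 over X genes. With the ratio of the inputs as an offset the roX1 fold was 0.93 ± 0.18 (edgeR adjusted p = 0.00295). Between OK107 and R57C10 the fold was 0.66 ± 0.21 and did not pass (edgeR adjusted p = 0.18). In that comparison 2.19% of genes and none of the 7 members were called, while 1 member had an unadjusted p below 0.05. The roX1 input ran the other way there, with a log2 ratio of -0.20, and with the input offset the fold became 0.86 ± 0.21 (edgeR adjusted p = 0.0441). It also passed when either Tdc2 library was left out of the shared fit, with adjusted p of 0.00876 without the early and 0.00796 without the late one, and with these 2 lines fitted alone (adjusted p = 0.00676). More of all genes were called in each of these settings than the 319 of the main fit. The input offset called 505 of 14585 and the 2 lines alone 978 of 14546. OK107 against Tdc2 gave -0.48 ± 0.22 for roX1 (edgeR adjusted p = 0.187), where 15.4% of genes were called. This difference was -0.07 with the input offset and -0.88 with total count scaling (edgeR adjusted p = 0.873 and 0.0083). Against the early Tdc2 library alone, which shared its date tag with OK107, the difference was -0.26 (edgeR adjusted p = 0.411), and without that library it was -0.67 (adjusted p = 0.0129). The 2 comparisons with R57C10 share its libraries and are not independent.

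**Figure D2:**
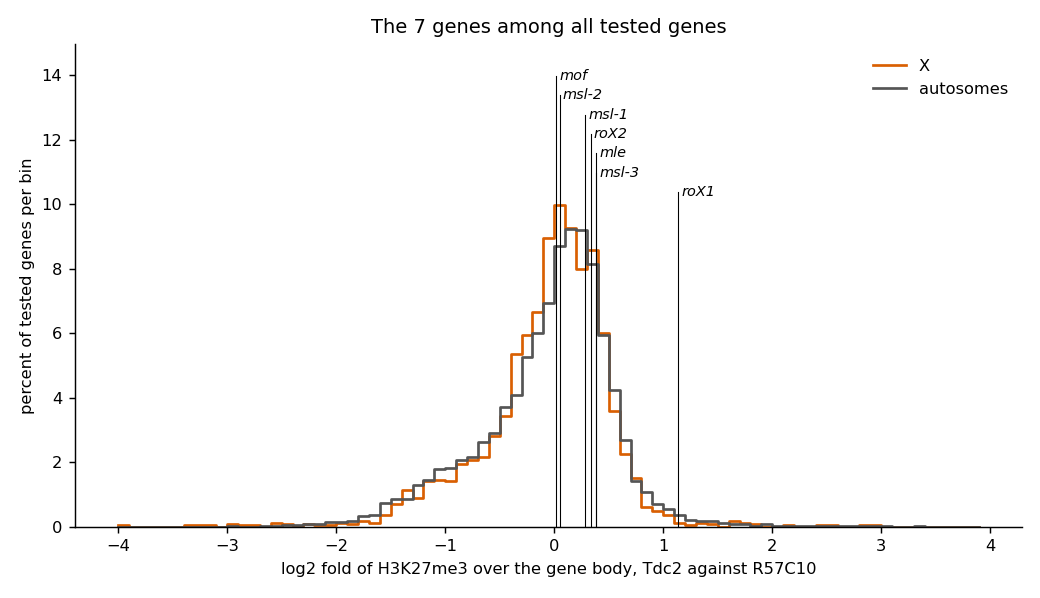
Distribution of the log2 fold of gene-body H3K27me3 between Tdc2 and R57C10 for all tested X genes (orange) and autosomal genes (grey), in percent of genes per bin, with the 7 members marked. roX1 lies in the right tail at 1.14, and the other 6 members lie between 0.02 and 0.39.

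Between Tdc2 and R57C10, the roX1 body rose in H3K27me3 while most of its neighbours did not. Tdc2 H3K27me3 had a narrower range over all genes than R57C10. The 90th percentile of log2 mark over input was 0.40 and 0.44 in Tdc2, against 0.76 and 1.02 in R57C10. Whether this narrower range contributes to the negative folds of enriched neighbours was not tested. Within 60 kb of the roX1 start, 11 other genes were tested, a range chosen after the window counts had been seen. On the upstream side lies yin, an oligopeptide transporter gene whose body reaches into a roX1 promoter window. In R57C10, yin had log2 H3K27me3 over input of 0.42 and 0.45, and on the downstream side ec (echinus) had 1.47 and 1.36, so roX1 at -0.41 and -0.50 formed a dip between them. In OK107 the 3 genes stood at 0.33 for yin, 0.38 for roX1 and 1.67 for ec, with no dip. In the early and late Tdc2 libraries yin was at -0.14 and -0.02, roX1 at 0.23 and 0.63, and ec at 1.16 and 1.13, so the values climbed from yin through roX1 to ec in the early library. In the late library they climbed in the same order.

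Between Tdc2 and R57C10 the 6 upstream neighbours had negative folds with a median of -0.35, of which CG15239 was called at -0.58 ± 0.15 (edgeR adjusted p = 0.0193). Downstream, ec had -0.14 ± 0.14 and CG2901 had -0.20 ± 0.14, neither of which passed. The forkhead gene fd3F was called lower, at -1.30 ± 0.15 (edgeR adjusted p = 0.00013). A tRNA gene of 0.072 kb, tRNA:P:3E, was the other gene of this stretch called higher, at 1.798 ± 0.407 (edgeR adjusted p = 0.0081). No gene of the stretch was called between OK107 and R57C10. In that comparison the downstream neighbours had a median fold of 0.38 and the upstream ones -0.09. Downstream, ec had 0.38 ± 0.16 and tRNA:P:3E 0.64 ± 0.46, beside 0.66 ± 0.21 for roX1, and fd3F had -0.31 ± 0.18.

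**Figure D3:**
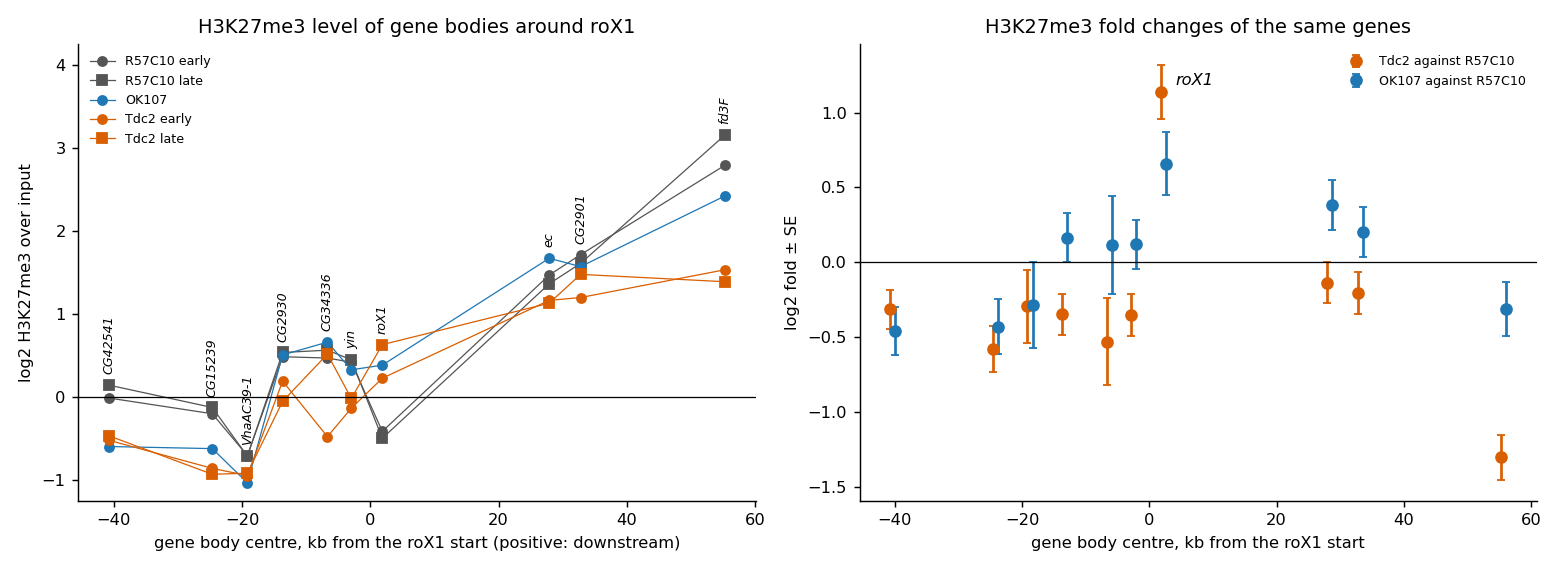
Genes within 60 kb of the roX1 start that are longer than 0.5 kb, placed by the distance of the body centre from the start in kb. The left panel gives log2 H3K27me3 over input in each of the 5 libraries, and the right panel gives the log2 fold ± SE of Tdc2 and, shifted slightly to the right, of OK107 against R57C10. roX1 has the highest fold in both contrasts, at 1.14 and 0.66, and its R57C10 points lie below those of yin and ec.

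Counts in 10 kb windows, which cover OK107 and the pooled Tdc2 libraries, placed roX1 beside a downstream stretch of high H3K27me3. In OK107, log2 H3K27me3 over input was -1.10 in the window centred 23.3 kb upstream of the roX1 start. It was 0.01 at 13.3 kb upstream, 0.20 at 8.3 kb upstream and -0.02 in the window over the gene. It then climbed to 2.05 in the window 51.7 kb downstream. In Tdc2 the same windows gave -0.70, 0.13, 0.16, 0.32 and 1.61. The window over roX1 stood at percentile 73.7 of X windows in OK107 and 84.3 in Tdc2, and the medians of X windows were -0.72 and -0.40. H3K27ac over the roX1 window was slightly below input, at -0.22 in OK107 and -0.05 in Tdc2. The roX2 window was at the other end of the scale, at -1.75 in OK107 and -1.05 in Tdc2, percentiles 3.04 and 2.13 of X windows. The H3K27ac values of the roX2 window were 0.15 and 0.27, both above input.

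**Figure D4:**
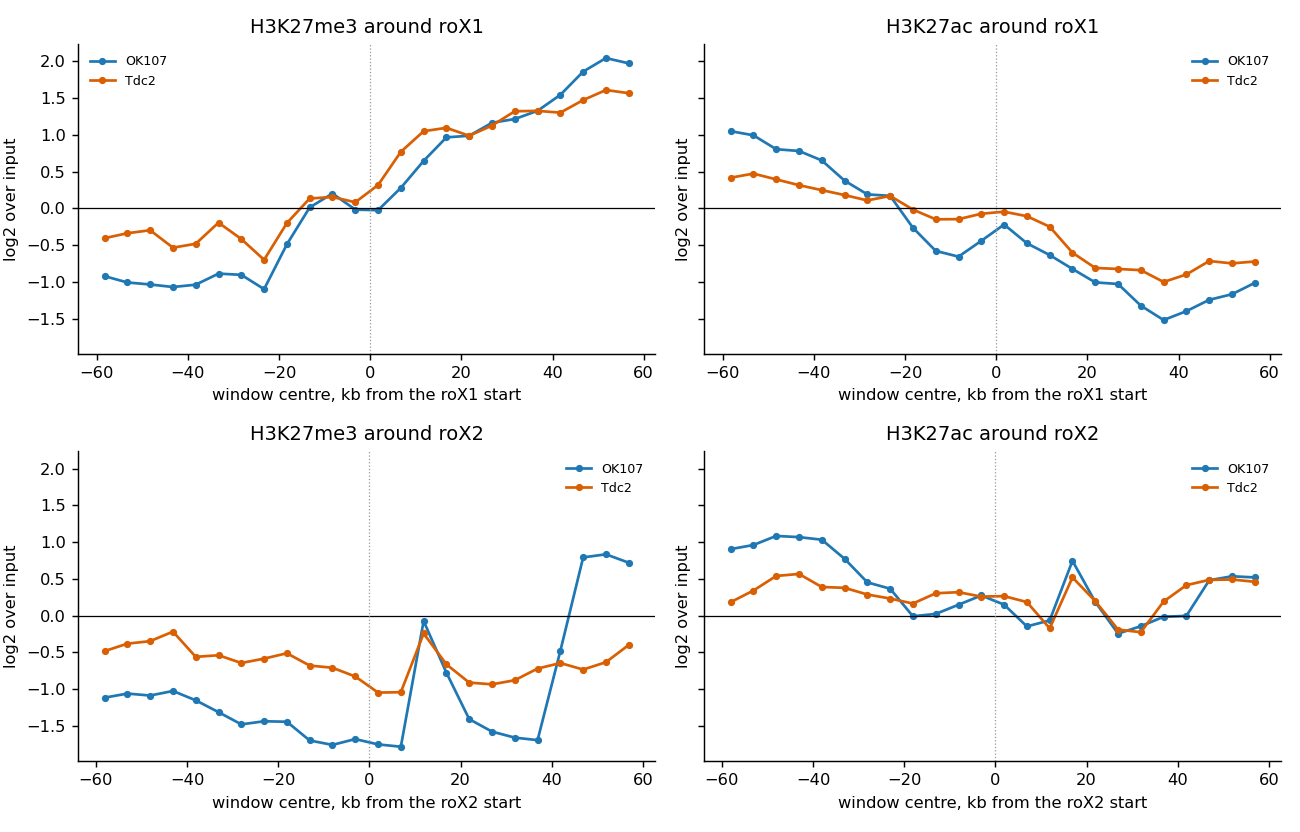
H3K27me3 and H3K27ac over input in overlapping 10 kb windows around the starts of roX1 and roX2, in OK107 (blue) and pooled Tdc2 (orange); the x axis is the distance of the window centre from the start in kb, positive downstream. In OK107, H3K27me3 is nearly level from 13.3 kb upstream to the window over roX1. Downstream it climbs to 2.05 in OK107 and 1.61 in Tdc2, while the window over roX2 lies at -1.75 and -1.05.

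No difference between lines in the active marks of roX1 passed. H3K4me3 in the roX1-RB window was 37.2 and 49.9 CPM in R57C10, 31.9 CPM in OK107 and 38.7 CPM in Tdc2. That is 0.14 and 0.55 over input in R57C10, 0.06 in OK107 and -0.22 in Tdc2 on the log2 scale, with the promoter input highest in Tdc2 at 45.2 CPM, against 33.7 CPM in R57C10 and 30.6 CPM in OK107. H3K27ac was 56.0 and 57.6 CPM in R57C10, 46.3 CPM in OK107 and 58.8 CPM in Tdc2. All 4 libraries were above input in H3K27ac, by 0.39 to 0.77, and the 2 R57C10 libraries differed by less than OK107 differed from either. The H3K27ac folds were -0.29 ± 0.31 for OK107 and 0.05 ± 0.31 for Tdc2 against R57C10 (edgeR adjusted p = 0.594 and 0.911). The roX1-RA window, which starts further upstream, was lower than the RB window in all 8 libraries of these marks.

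roX2, the second RNA of the complex, was below input in all 3 marks in every library. Its H3K4me3 level was 36.0 and 30.1 CPM in R57C10, 27.9 CPM in OK107 and 32.3 CPM in Tdc2. All 4 libraries were below input, by -0.34 and -0.59 in R57C10, -0.64 in OK107 and -0.65 in Tdc2. The median tested promoter lay further below, from -2.32 to -1.21. Among tested promoters roX2 stood at percentiles 54.7 to 56.1 of H3K4me3 over input, and at 29.7 to 48.2 of H3K27ac over input. H3K27ac was 44.5 and 37.2 CPM in R57C10, 40.5 CPM in OK107 and 36.8 CPM in Tdc2, from -0.45 to -0.02 against input. Its gene-body H3K27me3 was 4.88 and 4.77 CPM in R57C10, 4.99 CPM in OK107, and 6.39 and 5.76 CPM in Tdc2, from 52 to 242 reads. With 64 and 52 reads in Tdc2, the fold of 0.33 ± 0.31 against R57C10 did not pass (edgeR adjusted p = 0.498). The 4 roX2 isoforms start close to each other, from 11473089 to 11473129, and their windows are not independent measurements. All 4 stayed below input in both active marks in every library.

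The assembly genes msl-1, msl-2 and msl-3 carried the highest active marks of the group in CPM. msl-2, which encodes the subunit whose translation is limited to males, had the highest H3K4me3 and H3K27ac CPM of the 7 in every library. Over input the H3K27ac order differed, with msl-1 above msl-2 in the early R57C10 library and mof above msl-2 in OK107. On that scale roX1 lay above msl-3 in the late R57C10 library, at 0.77 against 0.57. It was nearly level with msl-3 in OK107 and below it in the early R57C10 library. In Tdc2, roX1 was at 0.39, msl-3 at 0.24 and msl-1 at 0.05. The H3K4me3 of msl-2 was 216 and 411 CPM in R57C10, 336 CPM in OK107 and 167 CPM in Tdc2. These levels placed it at percentiles 97.2 and 99.0 of all promoters in R57C10, 98.5 in OK107 and 98.3 in Tdc2. Its log2 H3K4me3 over input was 1.69 and 2.61 in R57C10, 2.35 in OK107 and 1.33 in Tdc2, so Tdc2 was lowest in CPM and by this ratio although its rank was kept. The 2 msl-2 isoforms have identical windows, which almost coincide with that of Pdsw.

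H3K27ac in the msl-2 window was 139 and 149 CPM in R57C10, 121 CPM in OK107 and 94.9 CPM in Tdc2. The Tdc2 library was the lowest and OK107 was second lowest. The fold of Tdc2 against R57C10 was -0.60 ± 0.28 and did not pass (edgeR adjusted p = 0.0894). H3K27ac was denser in the msl-2 promoter window than over the msl-2 body. Most of that window is shared with the Pdsw window, so the ratio does not place the signal inside msl-2. The body of msl-2 held 0.440 times the density of its promoter window in OK107 and 0.550 times in Tdc2, which are percentiles 6.34 and 7.16 among genes of 2 to 10 kb with at least 50 promoter reads. The body counts of R57C10 were not used for this mark. Its H3K27me3 was 21.0 and 18.0 CPM in R57C10, 22.2 CPM in OK107, and 20.7 and 19.7 CPM in Tdc2. Both Tdc2 libraries lay within the R57C10 range, and OK107 was the highest.

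msl-1, the scaffold of the complex, held the only active-mark difference called among the members. Its H3K27ac was 138 and 130 CPM in R57C10, 115 CPM in OK107 and 77.3 CPM in Tdc2. The Tdc2 library lay below the other 3, while the 2 R57C10 libraries lay within 0.09 of each other on the log2 scale. The fold of Tdc2 against R57C10 was -0.80 ± 0.29 (1 library against 2; edgeR adjusted p = 0.0257). In this comparison 27.8% of all tested genes were called and 7.68% were called lower, so a single call among 7 members says little about the members together. DESeq2 gave -0.77 with an adjusted p of 0.0612. Tdc2 H3K27ac had a narrower range over all genes than R57C10: the 90th percentile of log2 mark over input was 0.68 against 1.24 and 1.21. With the trend of fold along enrichment removed, the msl-1 fold was -0.37 (edgeR adjusted p = 0.709). On ranks, msl-1 stood at percentiles 86.5 and 83.8 of H3K27ac over input in R57C10, 79.3 in OK107 and 56.3 in Tdc2, whereas msl-2 kept percentiles of 83.4 to 88.7. The msl-1 promoter input was 62.9 CPM in R57C10, 65.5 CPM in OK107 and 74.6 CPM in Tdc2.

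In H3K4me3, msl-1 stood at 170 and 278 CPM in R57C10, 242 CPM in OK107 and 97.8 CPM in Tdc2. Log2 over input was 1.40 and 2.11 in R57C10, 1.85 in OK107 and 0.37 in Tdc2, so OK107 lay between the R57C10 libraries and Tdc2 lay below them. The fold of Tdc2 was -1.19 ± 1.11 (edgeR adjusted p = 0.653). msl-1 H3K27me3 was 28.2 and 25.5 CPM in R57C10, 29.6 CPM in OK107, and 37.5 and 27.6 CPM in Tdc2. The early Tdc2 library was the highest and the late one lay among the others.

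msl-3, the chromodomain subunit, resembled msl-1 in H3K4me3, with 180 and 246 CPM in R57C10, 227 CPM in OK107 and 96.8 CPM in Tdc2. Its H3K27ac was 120 and 102 CPM in R57C10, 106 CPM in OK107 and 78.6 CPM in Tdc2, and the Tdc2 fold of -0.50 ± 0.29 did not pass (edgeR adjusted p = 0.177). H3K27me3 over msl-3 was 15.1 and 13.5 CPM in R57C10, 14.4 CPM in OK107, and 24.2 and 13.2 CPM in Tdc2. The 2 Tdc2 libraries spanned the whole range of the gene, with a log2 difference of 0.83 between them, larger than 91.2% of tested genes. They were the highest and the lowest of the 5, so no level of msl-3 H3K27me3 can be set for Tdc2. Leaving out the late library made the fold against R57C10 0.75 (edgeR adjusted p = 0.00172), and leaving out the early one made it -0.12.

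The helicase gene mle has 2 promoter windows, and they ranked the lines differently. The upstream window serves mle-RA and mle-RB, and the mle-RC start lies inside the gene. In the upstream window H3K27ac was 87.1 and 71.9 CPM in R57C10, 62.8 CPM in OK107 and 57.5 CPM in Tdc2, all above input, by 0.66 and 0.39, 0.71 and 0.33 on the log2 scale. In the mle-RC window it was 55.1 and 73.0 CPM in R57C10, 82.4 CPM in OK107 and 75.3 CPM in Tdc2, all below input, at -0.65 and -0.24, -0.30 and -0.13. In CPM, R57C10 was thus the highest line in the upstream window and the lowest in the other. The folds changed sign with it: the upstream window gave -0.34 ± 0.31 for OK107 and -0.47 ± 0.31 for Tdc2 against R57C10, and the mle-RC window gave 0.34 and 0.20. None of these folds passed (adjusted p at least 0.398 for OK107 and 0.172 for Tdc2 over all settings tried).

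For H3K4me3 the mle-RC window held more reads, with 128 and 175 CPM in R57C10, 189 CPM in OK107 and 82.6 CPM in Tdc2, against 99.5 and 150 CPM, 120 CPM and 71.6 CPM in the upstream window. The input was also higher there, at 87.8 CPM in R57C10, 103 CPM in OK107 and 83.3 CPM in Tdc2, against 55.4, 38.5 and 45.9 CPM upstream. Over input the upstream window was therefore the more enriched, at 0.83 and 1.42 in R57C10, 1.61 in OK107 and 0.63 in Tdc2, against 0.54 and 0.99, 0.87 and -0.01 for mle-RC. The H3K27me3 level of mle was 35.4 and 30.1 CPM in R57C10, 33.8 CPM in OK107, and 41.9 and 43.4 CPM in Tdc2. Both Tdc2 libraries were above the other 3, but the fold of 0.38 ± 0.16 against R57C10 did not pass (edgeR adjusted p = 0.129).

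mof, the acetyltransferase gene on the X, had less H3K4me3 than the assembly genes in CPM and a lower input. The level was 85.0 and 166 CPM in R57C10, 144 CPM in OK107 and 72.1 CPM in Tdc2, and log2 over input was 1.29 and 2.25, 1.92 and 0.67, near the values of msl-1. H3K27ac was 41.7 and 73.3 CPM in R57C10, 76.6 CPM in OK107 and 62.1 CPM in Tdc2. The early R57C10 library stood apart from the other 3. The log2 difference of 0.80 between the R57C10 libraries was larger than that of 98.2% of tested genes. The folds of 0.42 ± 0.30 for OK107 and 0.11 ± 0.31 for Tdc2 did not pass (edgeR adjusted p = 0.397 and 0.792), and without the early library the Tdc2 value was -0.24. mof H3K27me3 was 14.7 and 12.9 CPM in R57C10, 12.05 CPM in OK107, and 13.4 and 14.6 CPM in Tdc2. The Tdc2 libraries lay within the R57C10 range and OK107 lay below it, beside the largest input of the 3 lines over the mof body, 30.3 CPM in OK107 against 23.0 CPM in R57C10 and 27.2 CPM in Tdc2.

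**Figure D5:**
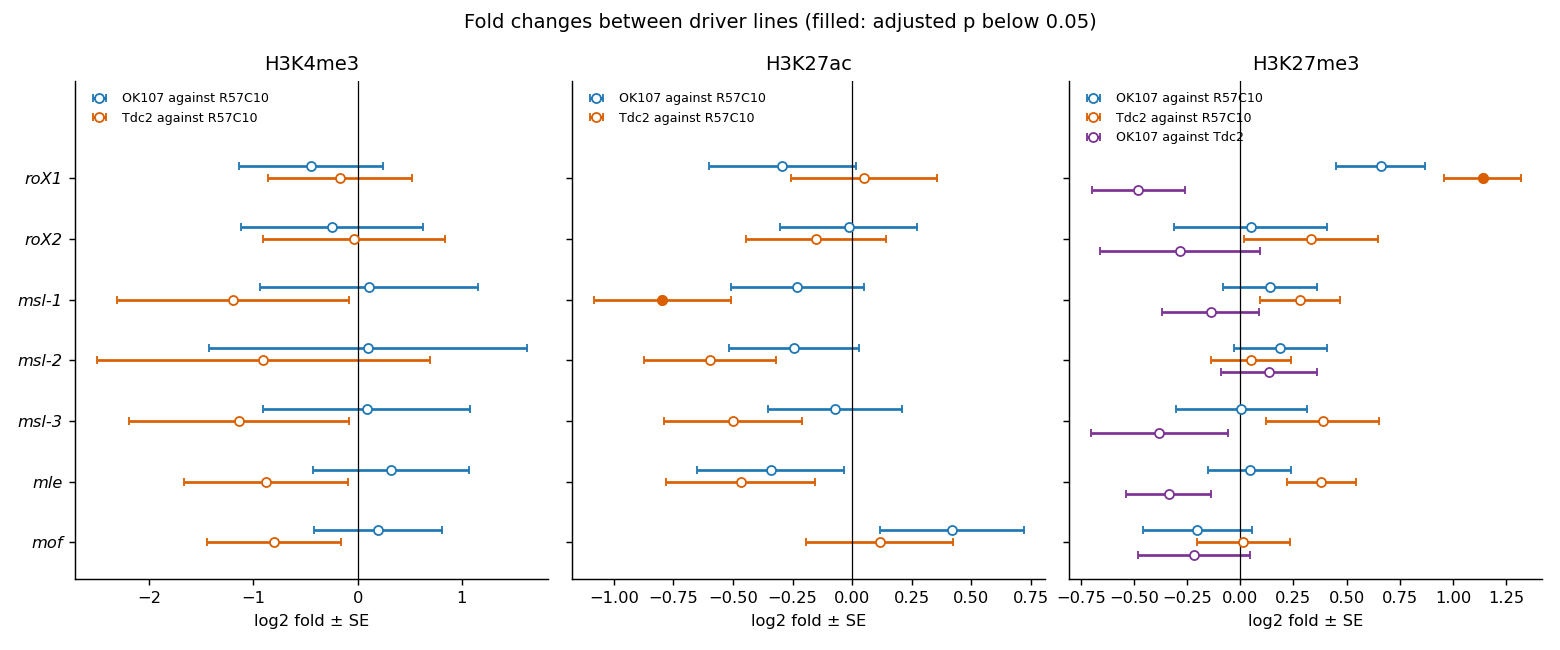
Log2 fold ± SE between driver lines for each member and mark, from the edgeR fit over all genes, with filled points for adjusted p below 0.05. The filled points are roX1 H3K27me3 at 1.14 and msl-1 H3K27ac at -0.80, both for Tdc2 against R57C10; the H3K4me3 axis is wider because its errors are.

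As a group, the 7 members had a median H3K27me3 fold of 0.33 between Tdc2 and R57C10, beside 0.04 over all tested genes and 0.02 over X genes, and all 7 folds were above 0, though those of msl-2 and mof fell below 0 with the input offset and with the trend of fold along enrichment removed. With total counts as the scaling both medians moved, to 0.69 for the members and 0.40 for all genes. They stood 0.29 apart as with TMM scaling, but a change of scaling moves all folds nearly alike and so cannot test this gap. With the input offset the medians were 0.22 for the members and 0.03 for all genes. With the trend of fold along enrichment removed they were 0.18 and 0.02. Without the early Tdc2 library the member median was 0.08, beside 0.0015 over all genes. Their median fold was 0.05 for OK107 against R57C10, where the median of all genes was 0.01. In H3K27ac the median of the members was -0.23 for OK107 and -0.47 for Tdc2 against R57C10, beside 0.01 and -0.04 over all genes. With that trend removed the Tdc2 median of the members was -0.12. In H3K4me3 it was 0.10 for OK107 and -0.88 for Tdc2, beside 0.09 and 0.50 over all genes. RLE scaling moved the member medians to -0.28 and -1.66 and those of all genes to -0.21 and -0.12. With the trend of fold along enrichment removed, the Tdc2 medians were -0.044 for the members and -0.0063 for all genes. Without the late R57C10 library they were -0.37 and 0.19. No member was called in H3K4me3, where edgeR called 1 gene (0.00679% of those tested) for OK107 and 0 genes (0%) for Tdc2, with 68 and 655 genes at an unadjusted p below 0.05. DESeq2 called 5 genes and 1 gene. The R57C10 libraries differed by a median absolute log2 difference of 0.78 in this mark, against 0.22 in H3K27ac. The SE of the member folds in H3K4me3 ran from 0.61 for mof to 1.60 for msl-2, and the msl-1 fold of -1.19 in Tdc2 did not pass. No detection limit was computed. No member was called in H3K27ac between OK107 and R57C10 either, where 10.5% of genes were called.

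Among the protein genes, msl-1, msl-2, msl-3 and mof had profiles closer to one another than to the RNA genes, whereas mle was about as far from msl-2 as from either RNA gene. Over the 13 mark libraries, the Euclidean distance of log2 mark over input was 0.87 between msl-1 and msl-3, the closest pair, and at most 3.004 between any pair of protein genes, mle and msl-2. From roX1 the distances were 2.98 to mle, 3.15 to roX2 and up to 4.80 to msl-2, and from roX2 they ran from 2.97 for mle to 5.75 for msl-2. The genes most like roX1 were dnd, CG15270 and Glycogenin, at 1.09, 1.12 and 1.17, beside a median distance of 5.31 over 14255 genes. For roX2 they were CG9265, CG3568 and CG30108, the first at 0.67. For the protein genes the nearest lay at 0.34 to 0.52: CG1646, Pis and CG2025 for msl-1, CG14043, yata and CG3702 for msl-2, and P5cr, su(Hw) and skap for msl-3. For mle they were CG42533, CG3714 and Pfk, and for mof they were CG4406, sta and CG4610.

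A list of 25 other genes was read. It held partners of the complex, regulators of msl-2 RNA and subunits of the NSL complex, which also holds MOF. Interband and other chromatin proteins, Pof, whose protein binds chromosome 4, and the sex determination gene tra completed it. In H3K27me3, 5 of the 25 were called higher and 0 lower in Tdc2 than in R57C10, with a list median of 0.31, beside 4.95% and 14.7% of all genes. These were Iswi, a nucleosome remodeller, at 0.72 ± 0.17, Chro, an interband protein, at 0.70 ± 0.17, E(bx), a remodeller subunit, at 0.59 ± 0.14, Sxl, the repressor of msl-2 translation, at 0.49 ± 0.14, and JIL-1, a kinase enriched on the male X, at 0.47 ± 0.14. The number fell to 1 without the early or without the late R57C10 library and to 0 with the trend along enrichment removed. It was 8 without the early Tdc2 library and 17 with total count scaling, settings in which 12.8% and 27.2% of all genes were called higher. In the settings with fewer calls from the list, a smaller share of all genes was called higher too. It was 2.62% with the trend removed. None of the 25 was called between OK107 and R57C10. E(bx) was called lower in OK107 than in Tdc2, at -0.57 ± 0.17, where 1.46% of all genes were called lower. That call was lost with the input offset.

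In H3K27ac the called members of the list were all lower than in R57C10. In OK107 they were 5 of 25, beside 3.07% of all genes called lower: nsl1 (listed as wah) at -1.15 ± 0.30, Clamp (listed as CG1832) at -1.01 ± 0.31, E(bx) at -1.01 ± 0.29, Iswi at -0.90 ± 0.32 and Trl at -0.90 ± 0.29. CLAMP is the zinc finger protein that guides the complex to its entry sites on the X. In Tdc2 they were 7 of 25, of which the 6 with the largest folds were Chro at -0.88 ± 0.30, Trl at -0.80 ± 0.29, nsl1 at -0.80 ± 0.30, Iswi at -0.79 ± 0.32, wds at -0.77 ± 0.31 and the gene of the heterochromatin protein HP1a at -0.75 ± 0.29, beside 7.68% of all genes called lower. Clamp had -0.10 ± 0.30 there, and Sxl had -0.34 ± 0.29 in Tdc2 and -0.51 ± 0.29 in OK107, none of which passed. The Tdc2 count was 1 with DESeq2 and 0 with the trend along enrichment removed, and it was 10 with the input offset and 2 with total count scaling, each also with 1 called higher. Of all genes, 2.62%, 0.421%, 13.4% and 4.53% were called lower in those 4 settings. The OK107 count was 0 with DESeq2, 0 with the input offset and 1 with the trend removed, beside 0.340%, 0.462% and 1.67% of all genes. In H3K4me3, 0 of 25 were called in either comparison.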

How the data were processed

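Positions are on dm3. Per the submitters' processing notes, CASAVA 1.8, Bowtie 0.12.7 and bedtools 2.15 were used; the handling of reads with several matches and of strand is not given in the sources used here. The authors deposited raw counts per isoform, in promoter windows and over gene bodies, and counts in 10 kb windows for OK107 and pooled Tdc2. The labels cover 16 samples, and 55 other sample columns were not used. Of 25701 entries, 203 isoforms without a gene (0.463 to 1.16% of a column) and 92 spike-in entries were left out. The columns carry date tags but no replicate numbers, so replicates were not paired. Nothing in the labels ties replicates to separate fly preparations; each p-value therefore reflects the spread among these libraries alone, possibly a technical one.

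For each gene the isoform with the most reads of a mark was fitted, by promoter for H3K4me3 and H3K27ac and by gene body for H3K27me3. edgeR 4.0.16 (R 4.3.3) was run with TMM scaling, its default filter on low counts and quasi-likelihood tests on all lines of a mark, with Benjamini-Hochberg adjustment over all genes and a threshold of 0.05. The fits had 2 residual degrees of freedom for H3K27me3 and 1 for each other mark, and were tested on simulated data. Single libraries were assumed to vary like the replicated lines. Inputs are CPM by total count, and a pseudocount of 1 CPM was added before log2 ratios. Alternatives were DESeq2 1.42.0, RLE, total count or autosomal scaling, an input offset, removal of the trend of fold along enrichment, no filter, another isoform, fits of the compared lines alone and each replicate left out.

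The members and lists were chosen with earlier results of these data known. The text names all 7 members, Clamp, Sxl and up to 6 called genes of the list of 25 a direction. It also names genes overlapping a promoter window of a member, and the 3 genes nearest to each member in profile. Genes within 60 kb of roX1 were chosen after their values were seen.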

Additional observations from a re-analysis of the deposited data

How the results depend on the processing

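The roX1 rise in H3K27me3 between Tdc2 and R57C10 was called in all 13 alternatives, at 0.92 to 1.49, and the fall of msl-1 H3K27ac was not called with DESeq2 or with the trend along enrichment removed. Of 7 members, the number called in H3K27me3 between Tdc2 and R57C10 went from 1 to 4 with total count scaling, and ranged from 1 to 3 with a replicate left out. For OK107 against R57C10 it went from 0 to 1 with the input offset and with the compared lines only, and ranged from 0 to 1 with a replicate left out. For OK107 against Tdc2 it went from 0 to 2 with total count scaling, and ranged from 0 to 1 with a replicate left out. For H3K27ac in Tdc2 it went from 1 to 0 with DESeq2 and to 0 with the trend removed. Calls over all genes moved as well. In H3K27me3, total count scaling called 5334 of 14585 genes for Tdc2 against R57C10 and 3718 for OK107 against Tdc2. For OK107 against R57C10, 505 of 14585 were called with the input offset and 978 of 14546 with the compared lines only. In H3K27ac for Tdc2, DESeq2 called 2170 of 14710 genes and removal of the trend left 135. The largest H3K27me3 counts with a replicate left out are given below. In H3K4me3 and H3K27ac, leaving out an R57C10 library leaves 1 library a line, so these are values with no test.

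Of the alternative folds, 56 changed sign, all of folds that did not pass, and the cause was not tested. With RLE scaling and with DESeq2, the H3K4me3 folds of OK107 against R57C10 became -0.28 for msl-1, -0.31 for msl-2, -0.28 for msl-3, -0.048 for mle and -0.22 for mof. The H3K27me3 fold of msl-3 in that comparison became -0.0046 with RLE scaling, -0.0043 with DESeq2, -0.0435 with total counts, -0.0841 with the input offset and -0.0161 with the compared lines only. Total counts gave -0.0069 there for mle, -0.26 for msl-2 H3K27me3 in OK107 against Tdc2, 0.37 for roX1 and 0.45 for roX2 H3K4me3 in Tdc2 against R57C10, and 0.0326 for roX2 H3K27ac in OK107. The input offset gave -0.0296 for msl-2 and -0.22 for mof H3K27me3 in Tdc2 against R57C10, -0.14 for msl-2 in OK107 against R57C10, and 0.20 for roX2 and -0.11 for msl-2 in OK107 against Tdc2. In H3K27ac it gave 0.0357 for roX2 and 0.17 for mle in OK107, and -0.36 for roX1 and -0.27 for mof in Tdc2. The isoform with the largest input gave 0.34 and 0.20 for mle H3K27ac in OK107 and Tdc2. Removing the trend gave -0.14 for msl-2 and -0.17 for mof H3K27me3 in Tdc2 against R57C10, 0.13 for msl-1 in OK107 against Tdc2, -0.0221 for msl-2 H3K4me3 and 0.0624 for msl-3 H3K27ac in OK107. It gave 0.19 for roX1, 0.067 for msl-2 and 0.10 for mof H3K4me3 in Tdc2.

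With a replicate left out, H3K27me3 folds of Tdc2 against R57C10 ran from -0.0546 to 0.12 for msl-2, -0.12 to 0.75 for msl-3 and -0.0736 to 0.0768 for mof. Those of OK107 against R57C10 ran from -0.0701 to 0.0447 for msl-3 and -0.0656 to 0.12 for mle, and those of OK107 against Tdc2 from -0.34 to 0.10 for msl-1 and -0.75 to 0.12 for msl-3. H3K4me3 folds of OK107 ran from -0.20 to 0.51 for msl-1, -0.29 to 0.64 for msl-2, -0.12 to 0.33 for msl-3 and -0.21 to 0.76 for mof, and those of Tdc2 from -0.37 to 0.0582 for roX1 and -0.16 to 0.10 for roX2. H3K27ac folds ran from -0.13 to 0.12 for roX2 and -0.18 to 0.0488 for msl-3 in OK107, and -0.24 to 0.57 for mof in Tdc2.

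Over all genes, calls in H3K27me3 for Tdc2 against R57C10 numbered 2870, against 5334 with total counts, 897 with the trend removed and up to 4629 with a replicate left out. For OK107 against R57C10 they numbered 319, from 146 with RLE scaling to 993 without the early Tdc2 library, and for OK107 against Tdc2 2249, from 711 with the trend removed to 4224. In H3K27ac they numbered 1543 for OK107, down to 180 with DESeq2, and 4096 for Tdc2, down to 135 with the trend removed; in H3K4me3, total counts called 13 for OK107 and 161 for Tdc2. No paired analysis was possible because the columns carry no replicate numbers, and the replicate block was not run. Depth limited roX2 most, with 52 and 64 H3K27me3 reads in Tdc2.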
